A study of Mus musculus with 8 samples.

Results

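The genes described here are 10 core genes of NF-κB signaling in the mouse aorta, 10 of the 35896 genes in the RNA-sequencing table. They were chosen by symbol. Nfkb1, Nfkb2, Rela, Relb and Rel encode the subunits, Nfkbia and Tnfaip3 encode inhibitors, and Il6, Il1b and Tnf encode inflammatory cytokines. The libraries came from aortas of male C57BL6 mice (C57B6/J in the study's methods). Osmotic minipumps implanted at 11 weeks of age delivered angiotensin II at 2.8 mg/kg per day. Aortas were taken after 2 weeks of infusion (AngII), or 2 or 3 weeks after a 2-week infusion had ended (AngII+2W and AngII+3W), and untreated littermates of matched age served as control (CTRL). Each group had 2 libraries, and each library held pooled aortic tissue of 2 mice, so that the 8 libraries stand for 16 mice. The labels do not say when the CTRL mice of these libraries were sacrificed. Whole tissue was sequenced, so fewer cells of a type and less RNA per cell cannot be told apart.

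NF-κB is a family of transcription factors that pair up from the 5 subunits and are held in the cytoplasm by inhibitors of the IκB family. Receptors for tumor necrosis factor, interleukin-1 and microbial products activate kinases that mark IκB for degradation, after which the dimers enter the nucleus. Much of this regulation acts on proteins, which RNA-sequencing does not measure. Nfkbia and Tnfaip3 are themselves targets of NF-κB and end the response, and Il6, Il1b and Tnf are classical targets in macrophages and in the vessel wall.

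All 10 genes are protein-coding. On GRCm38, Nfkb1 is at chr3:135584655-135691547 (minus strand), Nfkb2 at chr19:46304320-46312385 (plus), Rela at chr19:5637483-5648130 (plus), Relb at chr7:19606217-19629438 (minus) and Rel at chr11:23736847-23770970 (minus). Nfkbia is at chr12:55489410-55492647 (minus), Tnfaip3 at chr10:19000910-19015657 (minus), Il6 at chr5:30013114-30019981 (plus), Il1b at chr2:129364570-129371139 (minus) and Tnf at chr17:35199381-35202007 (minus). The annotation places an antisense gene, Il1bos, over Il1b, and Psd and an unnamed RNA gene on the opposite strand over Nfkb2, and Gm43430 on the same strand over Nfkb1. Whether the counting used strand is not given in the sources used here, so counts of these overlapping genes are less certain.

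The sequences before the start sites of Nfkbia, Il6 and Il1b are shown because the results below turn on these 3 genes. They are the 250 bases before the start site on GRCm38.p6 from RefSeq, 5′ to 3′ on the gene's strand, and capitals mark a match to the NF-κB (κB) consensus on either strand. Nfkbia lies at chr12:55492648-55492897 (minus strand), Il6 at chr5:30012864-30013113 (plus) and Il1b at chr2:129371140-129371389 (minus).
Nfkbia: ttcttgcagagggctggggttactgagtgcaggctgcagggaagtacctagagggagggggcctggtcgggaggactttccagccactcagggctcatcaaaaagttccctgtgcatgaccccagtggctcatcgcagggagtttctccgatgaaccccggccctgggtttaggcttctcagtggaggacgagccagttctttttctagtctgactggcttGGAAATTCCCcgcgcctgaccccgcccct
Il6: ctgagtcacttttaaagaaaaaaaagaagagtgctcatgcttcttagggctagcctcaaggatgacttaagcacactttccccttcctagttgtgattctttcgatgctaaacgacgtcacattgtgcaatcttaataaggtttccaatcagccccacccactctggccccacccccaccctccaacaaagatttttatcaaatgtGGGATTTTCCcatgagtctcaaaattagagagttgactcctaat
Il1b: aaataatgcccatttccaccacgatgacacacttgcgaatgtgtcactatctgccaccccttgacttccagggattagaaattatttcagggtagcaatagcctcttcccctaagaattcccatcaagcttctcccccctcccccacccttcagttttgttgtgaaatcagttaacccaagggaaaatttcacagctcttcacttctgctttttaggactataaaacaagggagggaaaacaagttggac
Nfkbia and Il6 each held 1 match, and Il1b held none. In windows from 250 bases before to 50 bases after a start site, the consensus was found in 1480 of 32851 promoters (4.51%), on either strand. The RefSeq table had an entry for 8 of the 10 genes (not for Nfkb1 and Relb), and 7 of the 11 promoters of these 8 genes had a match (63.6%), which belong to Nfkb2, Rel, Nfkbia, Tnfaip3 and Il6. Matches can overlap, since the consensus can be read on both strands of a palindromic stretch. Promoter windows can overlap too, and a match shared by overlapping windows of Nfkb2 counts in each of them. By gene, 5 of the 8 had a match (62.5%). A match is a description of the letters in this window and shows no binding.

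The counts summed to between 18130400 and 21498200 per library, and 3 counts, taken here as the floor of detection, were 0.140 to 0.162 CPM (counts divided by the normalized library size, scaled to a common total). Values of the 2 libraries of a group are given from low to high. All 6 smooth muscle and all 5 endothelial markers were present in every library, as labelled for aorta. The summed level of the 9 macrophage markers (highest were Lyz2, Mrc1 and Csf1r) was 289 to 387 CPM for CTRL, 755 and 1265 CPM for AngII, 493 to 494 CPM for AngII+2W, and 237 and 420 CPM for AngII+3W. AngII+3W replicate 1 stood apart, with 2523 CPM of skeletal muscle markers against 4.51 to 74.2 CPM in the other libraries, and with the highest share of mitochondrial counts (18.3%, against 8.15% to 13.5%). Cardiac muscle markers summed to 2022 and 4582 CPM for CTRL, 760 and 1215 CPM for AngII, 6.34 and 147 CPM for AngII+2W, and 320 and 5261 CPM for AngII+3W. Both CTRL libraries were thus above all AngII and AngII+2W libraries. The part of cardiac RNA in the comparisons was not tested. Leukocyte markers were 70.2 to 70.3 CPM for CTRL and 144 to 227 CPM for AngII. Fibroblast markers were 2409 to 3694 CPM for CTRL and 15998 to 25848 CPM for AngII. The collagen genes Col1a1 and Col3a1 held most of this sum, with AngII means of 8908 and 10894 CPM. T cell (11.5 to 18.2 CPM), B cell (4.89 to 11.1 CPM), endothelial (866 to 1161 CPM) and adipocyte markers (4212 to 5751 CPM) moved less over the 8 libraries. Smooth muscle markers were 7413 to 9472 CPM for CTRL and 1696 to 3928 CPM in the 6 AngII-treated libraries.

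**Figure D1:**
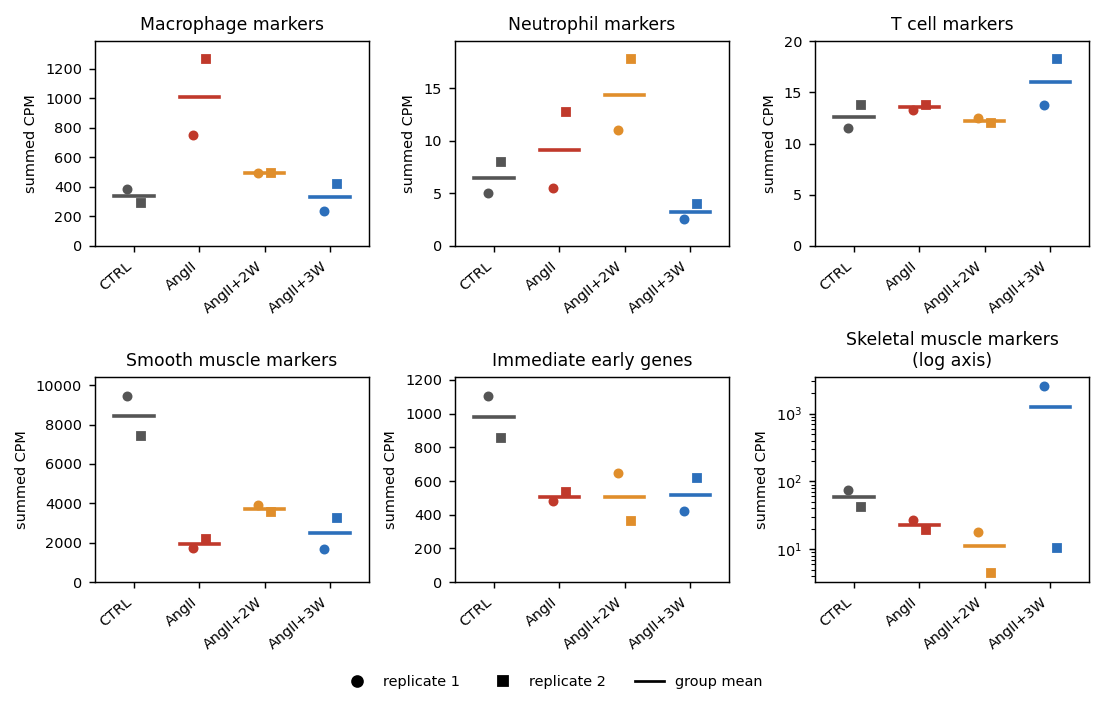
Summed CPM of marker lists in each library (circles, replicate 1; squares, replicate 2; lines, group means; axes from 0 except the skeletal muscle panel, which has a log axis). Macrophage markers were highest in AngII, with 755 and 1265 CPM, and AngII+3W replicate 1 had 2523 CPM of skeletal muscle markers.

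None of the 9 genes tested (all but Il6) passed the FDR threshold of 0.05 in any of the 6 comparisons between groups (edgeR quasi-likelihood test, FDR adjusted over 17182 genes). Over all genes tested, 5.1% passed in AngII against CTRL, 0% in AngII+2W against CTRL, 0.285% in AngII+3W against CTRL, 0.163% in AngII+2W against AngII, 1.61% in AngII+3W against AngII and 0% in AngII+3W against AngII+2W. At an unadjusted p below 0.05, Nfkbia and Il1b passed in AngII against CTRL (2 of 9, all genes 20.2%), and Nfkbia and Rela in AngII+3W against CTRL (2 of 9, all genes 12.5%). No gene of the 9 passed at that level in AngII+2W against CTRL (all genes 10.7%) or in AngII+2W against AngII (all genes 15%). Il1b passed in AngII+3W against AngII (1 of 9, all genes 17.8%), and Nfkbia and Il1b in AngII+3W against AngII+2W (2 of 9, all genes 8.83%). DESeq2 and the likelihood ratio test each called 1 of the 9 genes in 3 comparisons, which was Il1b in AngII against CTRL and in AngII+3W against AngII, and Nfkbia in AngII+3W against CTRL. They called none in the other 3. Over all genes, DESeq2 called 9.24% in AngII against CTRL, 3.4% in AngII+3W against CTRL and 5.63% in AngII+3W against AngII, and the likelihood ratio test called 9.96%, 3.24% and 6.22%. The limma-voom and newer quasi-likelihood fits called none of the 9 in all 6 comparisons.

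**Figure D2:**
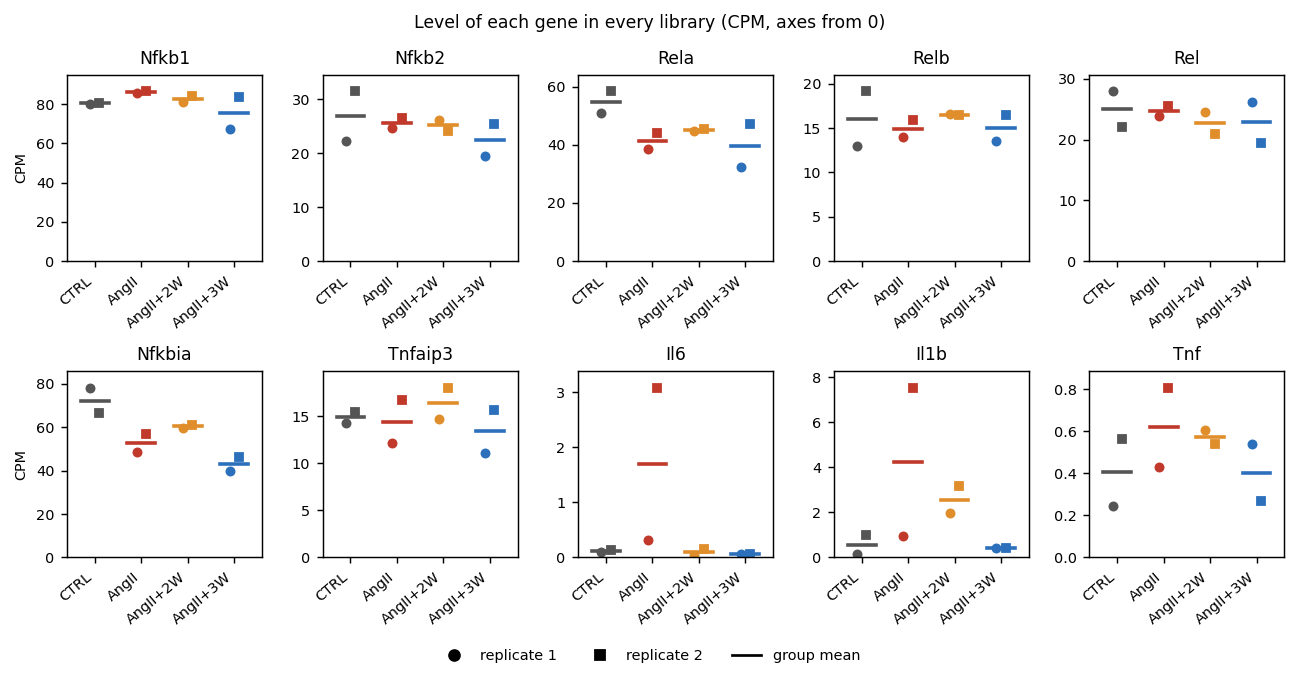
CPM of the 10 genes in each library (circles, replicate 1; squares, replicate 2; lines, group means; axes start at 0 and differ between panels). Nfkbia separates all 4 groups, while the Il6 and Il1b means in AngII rest on replicate 2, at 3.08 and 7.53 CPM.

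None of the 5 subunits passed the test in any comparison. The group means of Nfkb1, Nfkb2, Relb and Rel differed from CTRL by log2 fold changes of -0.26 to 0.10, and those of Rela by -0.46 to -0.28. Nfkb1, which encodes the precursor of a DNA-binding subunit, was at 80.1 and 80.8 CPM for CTRL, 85.6 and 86.4 CPM for AngII, 81.3 and 84.3 CPM for AngII+2W, and 67.5 and 83.8 CPM for AngII+3W. Its AngII and AngII+2W libraries were all above CTRL, but the log2 fold changes were 0.10 (95% interval -0.21 to 0.40, edgeR FDR = 0.753) and 0.04 (-0.26 to 0.35, FDR = 0.947). In AngII+3W the value was -0.09 (FDR = 0.826), and it was 0.05 without replicate 1 of that group.

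Rela, the subunit with the main transactivating role in the canonical pathway, was lower in all 6 AngII-treated libraries than in both CTRL libraries. It was at 51.1 and 58.3 CPM for CTRL, 38.7 and 44.0 CPM for AngII, 44.6 and 45.4 CPM for AngII+2W, and 32.3 and 47.2 CPM for AngII+3W. The log2 fold changes against CTRL were -0.40 ± 0.18 (SE, FDR = 0.272), -0.28 ± 0.18 (FDR = 0.644) and -0.46 ± 0.18 (FDR = 0.360) in AngII, AngII+2W and AngII+3W, respectively, in the edgeR test. The AngII+3W value was -0.22 without replicate 1 of that group and -0.81 without replicate 2. The 3 treated groups overlapped with each other, except that AngII+2W was above AngII (0.12, FDR = 0.829).

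Nfkb2 and Relb, which form the dimer of the non-canonical pathway, varied as much within CTRL as between groups. Nfkb2 was at 22.3 and 31.4 CPM for CTRL, and the other 6 libraries lay between 19.4 and 26.5 CPM. Relb was at 13.0 and 19.1 CPM for CTRL, which were the lowest and the highest of the 8 libraries. Rel, the subunit best known from lymphocytes, was at 22.1 and 27.9 CPM for CTRL and at 19.4 to 26.2 CPM in the treated libraries. For these 3 genes, log2 fold changes against CTRL lay between -0.26 and 0.04 (edgeR FDR from 0.631 to 0.972). The 95% intervals for AngII against CTRL were -0.53 to 0.39 for Nfkb2, -0.58 to 0.37 for Relb and -0.46 to 0.42 for Rel, so that differences within these intervals could not be told from 0.

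Nfkbia, which encodes the inhibitor IκBα and whose κB match is shown above, was the only gene of the 10 whose libraries separated all 4 groups. It was at 66.4 and 78.2 CPM for CTRL, 48.6 and 56.9 CPM for AngII, 59.8 and 61.2 CPM for AngII+2W, and 39.9 and 46.2 CPM for AngII+3W. No groups overlapped, in the order CTRL, AngII+2W, AngII and AngII+3W from high to low, with means of 72.3 ± 8.32, 60.5 ± 0.967, 52.8 ± 5.84 and 43.0 ± 4.39 CPM (SD, n = 2). Such a separation of all 4 groups, in any order, was found for 3.03% of the genes tested and for 1 of the 9 genes described here. Neighbors in this order did not pass the test (edgeR FDR = 0.577, 0.591 and 0.330). Against CTRL, the log2 fold change was -0.45 ± 0.14 (SE, FDR = 0.117) in AngII, -0.26 ± 0.14 (FDR = 0.577) in AngII+2W and -0.75 ± 0.14 (FDR = 0.0841) in AngII+3W. The AngII+3W level was 0.596 times that of CTRL.

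The AngII+3W difference of Nfkbia depended on the test. Its FDR was 0.00303 with DESeq2 and 0.00610 with the likelihood ratio test, and 0.0841 in the edgeR quasi-likelihood test. It was -0.65 (FDR = 0.219) without AngII+3W replicate 1, the library with skeletal muscle RNA, and -0.91 (FDR = 0.0415) without replicate 2, a fit that called 2.59% of all genes. Over all alternatives the FDR lay between 0.00303 and 0.343, and the direction was the same in each. Against AngII+2W the log2 fold change in AngII+3W was -0.49 ± 0.14 (FDR = 0.395). Immediate early genes, a list of 12 genes that respond to stimulation within minutes, were also lower than CTRL at the median. They summed to 855 and 1107 CPM for CTRL, 480 and 535 CPM for AngII, 361 and 646 CPM for AngII+2W, and 420 and 618 CPM for AngII+3W, where Nr4a1, Jun and Egr1 had the highest levels. Their median log2 fold change was -0.91 for AngII (11 of 12 below 0, and 3 of 12 past FDR 0.05, all genes 5.1%), -0.87 for AngII+2W (12 of 12 below 0, none past FDR 0.05, and 8 at an unadjusted p below 0.05, all genes 10.7%) and -0.77 for AngII+3W (10 of 12 below 0, none past FDR 0.05, and 6 at an unadjusted p below 0.05, all genes 12.5%). Their part in the level of Nfkbia was not tested.

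Tnfaip3, which encodes the ubiquitin-editing inhibitor A20, overlapped with CTRL in every treated group. It was at 14.3 and 15.4 CPM for CTRL, 12.1 and 16.7 CPM for AngII, 14.7 and 17.99 CPM for AngII+2W, and 11.1 and 15.7 CPM for AngII+3W. The log2 fold changes were -0.04 (95% interval -0.57 to 0.49), 0.14 (-0.39 to 0.67) and -0.15 (-0.68 to 0.38), with edgeR FDR of 0.945, 0.893 and 0.833.

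**Figure D3:**
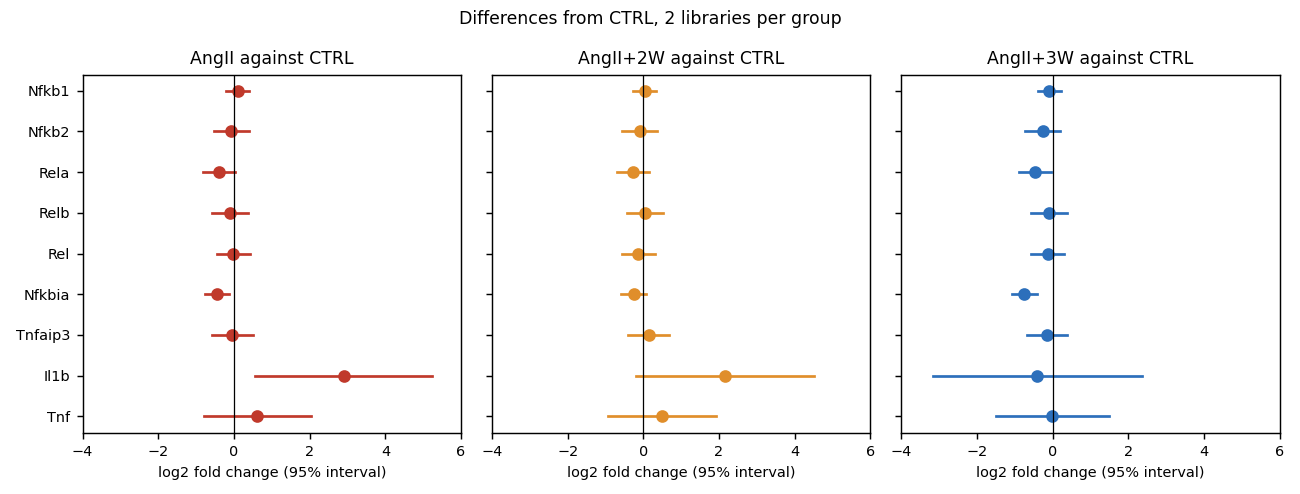
Log2 fold change against CTRL of the 9 genes tested (points) with its 95% interval (bars), for AngII, AngII+2W and AngII+3W. Nfkb1, Nfkb2, Relb, Rel and Tnfaip3 lie between -0.26 and 0.14, Rela is below 0 with values of -0.40, -0.28 and -0.46, Nfkbia is below 0 with values of -0.45, -0.26 and -0.75, and the interval of Il1b is wide, from 0.56 to 5.23 for AngII.

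The cytokines were near the floor of detection in most libraries. Il6, the cytokine of the acute-phase response whose κB match is shown above, had 2 and 3 counts for CTRL, 6 and 65 counts for AngII, 1 and 3 counts for AngII+2W, and 1 count in each AngII+3W library. It did not pass the filter on low counts. Both AngII libraries were above all others, and AngII replicate 2 held 65 of the 71 counts of its group. The ratio of Il6 counts for AngII to CTRL, scaled by library size, was 15.0 (95% counting interval 6.12 to 47.5, from 71 and 5 counts), and it was 2.71 (0.688 to 11.2, from 6 and 5 counts) without AngII replicate 2. These intervals cover counting error only. When all genes with 1 or more counts were tested, the log2 fold change of Il6 was 3.77 ± 1.03 (SE, edgeR FDR = 0.0713). With 1 library left out, Il6 passed the filter only in fits that kept AngII replicate 2. In those fits 1 library with enough counts met the filter, and AngII replicate 2 had 65. Without AngII replicate 1 the log2 fold change was 4.62, which sets that 1 library against the 2 and 3 counts of CTRL. No conclusion is drawn from it.

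Il1b, a cytokine released mainly by activated myeloid cells, had 3 and 21 counts for CTRL, 18 and 159 for AngII, 42 and 59 for AngII+2W, and 8 and 8 for AngII+3W. These are 0.146 and 0.988 CPM for CTRL, 0.972 and 7.53 CPM for AngII, 1.96 and 3.17 CPM for AngII+2W, and 0.430 CPM in both AngII+3W libraries. AngII overlapped with CTRL, since AngII replicate 1 was below CTRL replicate 2, whereas both AngII+2W libraries were above CTRL and both AngII+3W libraries were below every other treated library. The log2 fold change against CTRL was 2.89 ± 1.00 (SE, edgeR FDR = 0.155) in AngII, 2.15 ± 1.01 (FDR = 0.512) in AngII+2W and -0.40 ± 1.19 (FDR = 0.921) in AngII+3W. Without AngII replicate 2 the AngII value was 0.77 (FDR = 0.789), and without CTRL replicate 2 it was 4.80 (FDR = 0.182). With DESeq2 and the likelihood ratio test the FDR in AngII was 0.0196 and 0.0479, and over all alternatives it lay between 0.0196 and 0.789.

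Between the treated groups, Il1b was lowest in AngII+3W, where both libraries had 8 counts. AngII+3W against AngII was -3.30 ± 1.06 (SE, edgeR FDR = 0.167; 0.00976 with DESeq2 and 0.0330 with the likelihood ratio test), and -1.17 (FDR = 0.740) without AngII replicate 2. AngII+3W against AngII+2W was -2.55 ± 1.07 (edgeR FDR = 0.553). Neutrophil markers had their highest mean in AngII+2W. S100a8, S100a9, Csf3r and Ly6g summed to 5.02 and 7.95 CPM for CTRL, 5.56 and 12.8 CPM for AngII, 11.0 and 17.8 CPM for AngII+2W, and 2.53 and 3.98 CPM for AngII+3W, while Ly6g was at 0 in 7 of the 8 libraries. Of the 3 neutrophil markers tested, none passed FDR 0.05 against CTRL in AngII, AngII+2W or AngII+3W in edgeR, and 0, 2 (higher) and 2 (lower) passed an unadjusted p below 0.05 (all genes 20.2%, 10.7% and 12.5%). The part of these cells in the level of Il1b was not tested.

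Tnf, the cytokine that gives the canonical pathway its best-known trigger, had 5 to 17 counts in every library. It was at 0.244 and 0.565 CPM for CTRL, 0.432 and 0.806 CPM for AngII, 0.537 and 0.607 CPM for AngII+2W, and 0.269 and 0.538 CPM for AngII+3W. All treated groups overlapped with CTRL. The log2 fold change in AngII was 0.61 with a 95% interval of -0.80 to 2.03 (edgeR FDR = 0.646), and in AngII+3W it was -0.01 (-1.49 to 1.47, FDR = 0.997).

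Of the 9 genes tested, 3 did not overlap between AngII and CTRL (Nfkb1 higher, Rela and Nfkbia lower), against 49.2% of all genes. The number was 4 for AngII+2W (Nfkb1 and Il1b higher, Rela and Nfkbia lower; all genes 43.8%) and 2 for AngII+3W (Rela and Nfkbia lower; all genes 38.1%). The comparisons with CTRL share the CTRL libraries, so that Rela and Nfkbia were read against the same 2 libraries each time. The share of all genes that were below both CTRL libraries in every treated group was not computed.

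Levels were compared between the 10 genes per kilobase of transcript, over the 8 libraries. Nfkbia was highest, at a mean of 36.2 CPM per kilobase of its longest principal transcript (25.3 to 49.5 over libraries), followed by Nfkb1 at 19.7 and Rela at 16.6. With all annotated exons merged, Nfkbia was again first at 35.5, but Rela (14.7) was above Nfkb1 (6.73). Nfkb2 (7.96) and Relb (7.08) came next on the first scale and in the same order on the second (5.45 and 4.03). The 3 cytokines had the lowest means on both, at 1.44 for Il1b, 0.434 for Il6 and 0.305 for Tnf per kilobase of the principal transcript. Levels of Nfkb1 and Rela on the first scale, of Nfkb2 and Relb, and of Tnfaip3 (3.34) and Rel (3.19) overlapped between neighbors over the libraries. So did those of Rel and Il1b and of the 3 cytokines. In its highest library, AngII replicate 2, Il1b reached 5.56, above the maxima of Tnfaip3 (4.07) and Rel (3.74).

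The wider pathway was read from a list of 100 genes, which holds the 10 genes and their receptors, adaptors, kinases, other inhibitors, ligands and targets. Of these, 91 passed the filter. In AngII against CTRL, 4 rose and 1 fell at an FDR below 0.05 (5 of 91, all genes 5.1%), and 62 of the 91 log2 fold changes were above 0, with a median of 0.19 (all genes 48.9% above 0, median -0.01). By role, the number above 0 was 1 of 5 subunits, 3 of 6 IκB family inhibitors, 3 of 6 deubiquitinases and partners, 12 of 16 kinases, 9 of 13 adaptors and ubiquitin ligases, 13 of 16 receptors, 6 of 8 cytokine ligands and 15 of 21 targets. The median was -0.07 for the subunits and 0.27 for the receptors.

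The 4 genes that rose in AngII were Tlr1, Il33, Myd88 and Irak4. The share of the list called (5.49%) was near that of all genes (5.1%), so no common signal is read from them. Tlr1, a Toll-like receptor for bacterial lipopeptides, was at 2.05 and 2.35 CPM for CTRL and at 6.05 and 6.49 CPM for AngII (log2 fold change 1.51 ± 0.23 SE, edgeR FDR = 0.0172). Il33, an alarmin of the interleukin-1 family found in stromal cells, was at 7.67 and 17.2 CPM for CTRL and at 50.1 and 58.1 CPM for AngII (2.12 ± 0.43, FDR = 0.0357). Myd88, the adaptor of Toll-like and interleukin-1 receptors, was at 16.9 and 17.5 CPM for CTRL and at 25.0 and 27.9 CPM for AngII (0.62 ± 0.13, FDR = 0.0397). Irak4, the kinase that binds Myd88, was at 11.6 and 12.0 CPM for CTRL and at 17.3 and 20.4 CPM for AngII (0.68 ± 0.15, FDR = 0.0419). In each of the 4 genes both AngII libraries were above both CTRL libraries, as in 24.4% of all genes tested. The 4 genes were chosen by this same comparison, so this adds no support.

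Tnfrsf12a, the receptor for the cytokine TWEAK, was the gene that fell. It was at 26.5 and 39.0 CPM for CTRL, 11.1 and 12.7 CPM for AngII, 8.22 and 12.6 CPM for AngII+2W, and 6.02 and 8.76 CPM for AngII+3W. The log2 fold change against CTRL was -1.46 ± 0.29 (SE, edgeR FDR = 0.0334) in AngII, -1.65 ± 0.29 (FDR = 0.174) in AngII+2W and -2.15 ± 0.30 (FDR = 0.0455) in AngII+3W. It was the only gene of the list past the threshold in AngII+3W against CTRL (1 of 91, all genes 0.285%).

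These calls rested on few libraries. Tlr1, Il33, Myd88, Irak4 and Tnfrsf12a were called in AngII against CTRL only in fits that kept every CTRL and AngII library. The list genes called without CTRL replicate 2 or without AngII replicate 1 were other genes. In AngII against CTRL, the number of list genes called was 0 without CTRL replicate 1 or without AngII replicate 2, 3 without CTRL replicate 2, 2 without AngII replicate 1, 1 without either AngII+2W library and 9 without either AngII+3W library. The share of all genes called moved with it, and was 0.162% without CTRL replicate 1, 0% without AngII replicate 2, 1.96% without CTRL replicate 2, 1.28% without AngII replicate 1, 1.56% and 1.58% without AngII+2W replicate 1 or 2, and 8.48% and 8.35% without AngII+3W replicate 1 or 2. Log2 fold changes over these 8 fits were 1.41 to 1.60 for Tlr1, 1.64 to 2.82 for Il33, 0.54 to 0.70 for Myd88, 0.55 to 0.79 for Irak4 and -1.72 to -1.16 for Tnfrsf12a. The call of Tnfrsf12a in AngII+3W was kept in 2 of 8 such fits (all genes 0% to 2.59% called), with values of -2.50 to -1.84.

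**Figure D4:**
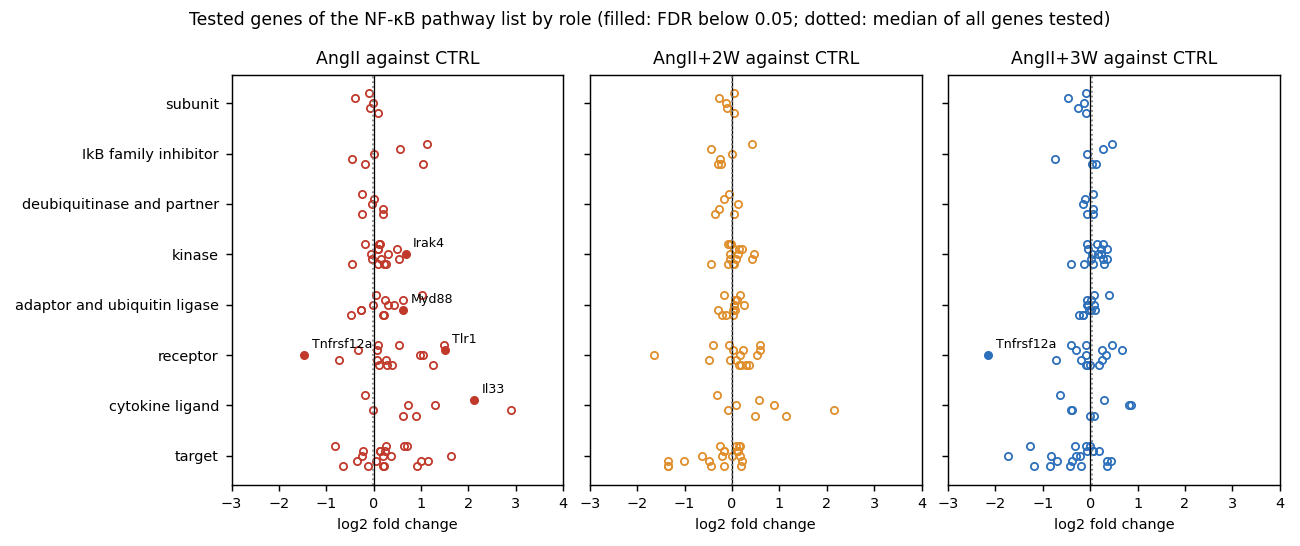
Log2 fold changes against CTRL of the 91 tested genes of the NF-κB pathway list, by role (1 point per gene; filled points have an FDR below 0.05; the dotted line is the median of all genes tested). In AngII, 62 of the 91 points are above 0, with a median of 0.19. This does not hold for every role, with 1 of 5 subunits, 3 of 6 IκB family inhibitors and 3 of 6 deubiquitinases and partners above 0. In AngII+2W and AngII+3W the points center near 0, with medians of 0.02 and -0.04.

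The inhibitors of the IκB family lay on both sides of 0 in AngII, with 3 of 6 above. Beside Nfkbia, 2 further members were chosen after their values were seen. Nfkbie, an inhibitor that retains dimers in the cytoplasm, was at 2.58 and 3.86 CPM for CTRL and at 5.83 and 8.20 CPM for AngII (log2 fold change 1.12, edgeR FDR = 0.106). Bcl3, a nuclear member that can act as a coactivator, was at 6.29 and 12.4 CPM for CTRL and at 18.3 and 20.04 CPM for AngII (1.03, FDR = 0.0977). None of the 6 passed FDR 0.05 in the edgeR quasi-likelihood test, and 3 of the 6 passed an unadjusted p below 0.05 (all genes 20.2%), with Nfkbie and Bcl3 higher and Nfkbia lower. Nfkbie passed FDR 0.05 with the likelihood ratio test (FDR = 0.0379, all genes 9.96%) and the replicate block (FDR = 0.0316, all genes 5.06%). Bcl3 passed with DESeq2 (FDR = 0.0207, all genes 9.24%) and the likelihood ratio test (FDR = 0.0287, all genes 9.96%). No other setting that kept both libraries of each group called either gene in AngII against CTRL.

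After the infusion, Tnfrsf12a in AngII+3W was the only call of the list in edgeR. None of the 91 genes passed in AngII+2W against CTRL (8 at an unadjusted p below 0.05, all genes 10.7%, median 0.02), and the median was -0.04 in AngII+3W against CTRL, with 41 genes above 0 and 50 below. None passed in AngII+2W against AngII (18 at an unadjusted p below 0.05, of which 17 were lower, median -0.17; all genes 15% at that level) or in AngII+3W against AngII (22, of which 20 were lower, median -0.27; all genes 17.8%). None passed in AngII+3W against AngII+2W (6, of which 5 were lower, median -0.05; all genes 8.83%). In edgeR, Tlr1 was -0.92 (FDR = 0.123) and -0.83 (FDR = 0.123) in AngII+2W and AngII+3W against AngII, Il33 was -1.54 (FDR = 0.149) and -1.84 (FDR = 0.0807), Myd88 was -0.56 (FDR = 0.109) and -0.60 (FDR = 0.0716), and Irak4 was -0.21 (FDR = 0.562) and -0.45 (FDR = 0.171). DESeq2 called 1 gene of the list in AngII+2W against CTRL, 6 in AngII+2W against AngII, 8 in AngII+3W against AngII and 1 in AngII+3W against AngII+2W, and the likelihood ratio test called 1, 5, 7 and 1. Over all genes in the same order, DESeq2 called 2.17%, 3.99%, 5.63% and 1.29%, and the likelihood ratio test called 2.44%, 4.46%, 6.22% and 1.59%.

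AngII replicate 2 was the library in which the most pathway genes stood highest. It had the highest CPM of the 8 libraries for 45 of the 91 pathway genes (49.5%), against 16.7% of all genes tested, while AngII replicate 1 had the highest for 2 (2.20%, all genes 9.80%). Summed CPM was highest in AngII replicate 2 for kinases, receptors and cytokine ligands. Other libraries had a higher sum for subunits, IκB family inhibitors, deubiquitinases and partners, adaptors and ubiquitin ligases, and targets. Of the 14 cytokine ligands on the list, filtered or not, 8 were highest in AngII replicate 2, and of the 10 genes described here Nfkb1, Il6, Il1b and Tnf were. This library also had the highest sum of macrophage markers (1265 CPM, against 755 CPM in AngII replicate 1) and of leukocyte markers (227 against 144 CPM). All 9 macrophage markers were above 0 in AngII against CTRL, and 5 passed FDR 0.05 (all genes 5.1%). The part of these cells in the cytokine levels was not tested. Fibroblast markers, of which 3 of 5 passed in AngII, moved in the direction of Il33, and their part was not tested either. Those that passed were Lum, Col1a1 and Col3a1, while Dcn (1.27, edgeR FDR = 0.124) and Pdgfra (0.79, FDR = 0.298) did not.

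**Figure D5:**
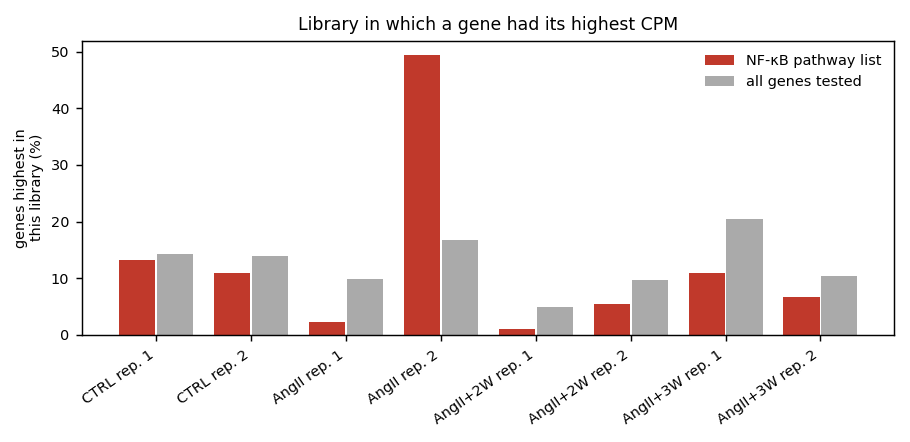
Share of genes (%, bars from 0) that had their highest CPM in each of the 8 libraries, for the 91 tested genes of the pathway list (red) and for all 17182 genes tested (grey). AngII replicate 2 holds 49.5% of the pathway genes and 16.7% of all genes.

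At the other end, AngII+3W replicate 1, the library with skeletal muscle RNA, was the lowest of the 8 libraries for Nfkb1, Nfkb2, Rela, Nfkbia and Tnfaip3. The AngII+3W means of these 5 genes were therefore lower than the level in replicate 2 of that group. Replicate 2 alone was below both CTRL libraries for Rela (47.2 CPM) and Nfkbia (46.2 CPM). The share of all genes that were lowest in AngII+3W replicate 1 was not computed, so this count is not read as particular to these genes.

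For each tested gene, the genes of the most similar course over the 8 libraries were found by Pearson's r of log2 CPM, as a description over points that share groups and library composition. They were Htt (0.96) and Llgl1 (0.96) for Nfkb1, Gm7331 (0.98) and Dnajb12 (0.97) for Nfkb2, Casc3 (0.98) and Dact3 (0.97) for Rela, Fam173a (0.97) and Kdm2b (0.97) for Relb, and Nasp (0.95) and Calm2 (0.94) for Rel. For the inhibitors they were Cd9 (0.98) and Nat14 (0.98) for Nfkbia and Ssh1 (0.97) and Shd (0.97) for Tnfaip3. For the cytokines they were Orai2 (0.97) and Srxn1 (0.96) for Il1b and Prkab1 (0.94) and Cbr1 (0.93) for Tnf. None of these 18 genes is on the pathway list. Values of this size are the maximum over 17182 genes and 8 libraries.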

How the data were processed

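Total RNA from aortas was sequenced in 8 libraries, 2 per group, each with tissue of 2 mice pooled before extraction. The 10 genes and all lists were chosen with earlier results of these data known. The deposited table holds expected counts per gene, as whole numbers without normalization or filtering. The authors depleted ribosomal RNA, sequenced all libraries in a single lane, estimated transcript counts with Salmon against mouse transcripts of GRCm38, and summed them to genes with tximeta, as given in the study's methods and labels. The estimates share reads between transcripts of similar sequence, and transcript lengths were not used in the tests. Levels per kilobase used lengths from the gene annotation.

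Genes were filtered with filterByExpr (minimum count 10), scaled by TMM and tested with edgeR 4.0.16 in R 4.3.3 (quasi-likelihood F test, legacy form). All 8 libraries entered 1 fit with 1 coefficient per group and 4 residual degrees of freedom, and 6 comparisons were made. FDR is the Benjamini-Hochberg adjusted two-sided p over 17182 genes, with a threshold of 0.05. The SE is the absolute log2 fold change divided by the square root of F. Exact permutation tests were not used, since 2 libraries in each of 2 groups allow no p below 0.33. P-values measure the spread between libraries of pooled mice. The fit was tested on simulated data before use.

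Genes named from the pathway list are those past the threshold, at most 8 in each direction per comparison by smallest p, and each tested gene has its 2 most similar genes by Pearson's r. Nfkbie and Bcl3 stand outside this rule. Gene positions are from GENCODE on GRCm38, and promoter sequences are from RefSeq (GRCm38.p6). Alternatives were DESeq2 1.42.0, limma-voom (limma 3.58.1), the likelihood ratio test, the newer quasi-likelihood fit, other scalings and filters, a fit of the 2 groups compared, a replicate block, and leaving out each library in turn. In these last fits a lone library is assumed to vary like the other groups.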

Additional observations from a re-analysis of the deposited data

How the results depend on the processing

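None of the 9 tested genes passed FDR 0.05 in edgeR, and this held in all 6 comparisons under other scalings and filters, limma-voom, the newer quasi-likelihood fit and the fit of 2 groups. DESeq2 and the likelihood ratio test each called 1 gene in AngII against CTRL, AngII+3W against CTRL and AngII+3W against AngII. With 1 library left out, the log2 fold change of Nfkbia in AngII+3W against CTRL ranged from -0.91 to -0.63. Il6 (not among the 9) entered such fits only through the counts of AngII replicate 2. It was 4.62 in AngII against CTRL without AngII replicate 1. Of the pathway list, 5 genes passed in AngII against CTRL, and the number was 3 with library totals (all genes 3.62%), 10 with every gene of at least 1 count (4.63%), 13 with DESeq2 (9.24%), 15 with the likelihood ratio test (9.96%) and 0 to 9 with 1 library left out (0% to 8.48%), against 5.1% of all genes in the edgeR test. In AngII+2W against CTRL it was 1 with DESeq2 (2.17%), 1 with the likelihood ratio test (2.44%) and 0 to 1 with 1 library left out (0% to 1.54%), in place of 0 (0%). In AngII+3W against CTRL it was 0 with library totals (0.00582%) or the fit of 2 groups (0%), 3 with every gene (0.819%), 4 with DESeq2 (3.4%), 4 with the likelihood ratio test (3.24%) and 0 to 3 with 1 library left out (0% to 2.59%), in place of 1 (0.285%). In AngII+2W against AngII it was 6 with DESeq2 (3.99%), 5 with the likelihood ratio test (4.46%) and 6 with the fit of 2 groups (5.34%), in place of 0 (0.163%). In AngII+3W against AngII it was 3 with every gene (2.14%), 8 with DESeq2 (5.63%), 7 with the likelihood ratio test (6.22%) and 0 to 1 with 1 library left out (0.0168% to 5.63%), in place of 0 (1.61%), and in AngII+3W against AngII+2W it was 1 (1.29%), 1 (1.59%) and 0 to 1 (0% to 2.42%) for the last 3 of these, in place of 0 (0%). The cause of these differences was not tested. Replicate numbers do not pair libraries, which came from different mice (correlations of replicate differences between groups -0.04 to 0.25). With a replicate block, none of the 9 genes was called, and the pathway list had 0 calls in AngII+3W against CTRL (all genes 0.0233%) and 6 in AngII against CTRL (5.06%), where Nfkbie was gained (1.13, FDR = 0.0316).

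Directions changed for log2 fold changes that were not past the threshold. The largest of these in edgeR were those of Il1b, at -0.74 in AngII+2W against AngII and -0.40 in AngII+3W against CTRL. Rel was 0.019 with library totals in AngII against CTRL. Il1b was 0.12 with limma-voom in AngII+3W against CTRL. Tnf was 0.034 with limma-voom and 0.036 with the replicate block in AngII+3W against CTRL. Relb was -0.0082 with DESeq2's size factors, -0.0499 with library totals, -0.0084 with DESeq2 and -0.000594 with limma-voom in AngII+3W against AngII. Rel was -0.0054 with DESeq2's size factors, -0.047 with library totals, -0.0036 with every gene, -0.0055 with DESeq2, -0.0092 with limma-voom and -0.0016 with the replicate block in AngII+3W against AngII+2W. With 1 library left out, log2 fold changes of the following genes ranged across 0. For AngII against CTRL the range was -0.30 to 0.19 (Nfkb2), -0.36 to 0.19 (Relb), -0.19 to 0.16 (Rel) and -0.30 to 0.17 (Tnfaip3). It was -0.31 to 0.17 (Nfkb2), -0.20 to 0.35 (Relb), -0.29 to 0.051 (Rel) and -0.021 to 0.27 (Tnfaip3) for AngII+2W against CTRL. For AngII+3W against CTRL the range was -0.31 to 0.055 (Nfkb1), -0.35 to 0.20 (Relb), -0.37 to 0.039 (Rel), -0.48 to 0.076 (Tnfaip3), -1.19 to 1.503 (Il1b) and -0.59 to 0.69 (Tnf). It was -0.0897 to 0.033 (Nfkb2), -0.043 to 0.44 (Tnfaip3), -1.57 to 1.39 (Il1b) and -0.50 to 0.41 (Tnf) for AngII+2W against AngII. For AngII+3W against AngII the range was -0.40 to 0.20 (Rela), -0.19 to 0.14 (Relb), -0.34 to 0.037 (Rel) and -0.43 to 0.14 (Tnfaip3). It was -0.34 to 0.017 (Nfkb1), -0.42 to 0.011 (Nfkb2), -0.52 to 0.069 (Rela) and -0.23 to 0.16 (Rel) for AngII+3W against AngII+2W. Low counts limit the cytokines, since 3 counts were 0.140 to 0.162 CPM and a single library decides the Il6 and Il1b means in AngII.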
